A study of Mus musculus with 8 samples.

Results

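*Neurl1b*, *Tmem255b*, *Fam129b*, *Trp53i11*, *Ttyh2*, *Colec11*, *Ift122* and *Gm10435* are 8 of the 46040 genes in a count table from the left ventricle (LV) of mice infused with angiotensin II (angII), and 8 of the 13542 genes that passed a filter on low counts. They were selected on their normalized counts, whose 4 values in each group did not overlap with the 4 values of the other group, and among genes that the paper does not name. This separation is therefore not a result about them. Their levels and differences below are descriptions without a test. *Neurl1b*, *Tmem255b*, *Fam129b*, *Trp53i11*, *Ttyh2*, *Colec11* and *Ift122* were lower in the libraries tagged VEGFR-1 TK-/-, at 53.9% to 70.7% of the control-tagged level, and *Gm10435* was higher, at 161%. These percentages are the fitted fold changes.

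VEGFR-1, encoded by *Flt1*, binds VEGF-A, VEGF-B and PlGF, and its kinase domain passes the signal into the cell. Male C57BL/6 mice aged 5 to 7 months, lacking this tyrosine kinase domain in all cells (VEGFR-1 TK-/-), and littermate controls all received angII by minipump at 0.1 mg/kg/h, and LV RNA of mice that had survived to day 14 was sequenced in 4 libraries per genotype. Each library's genotype tag and library name state one genotype, whereas its sample title states the other. Grouping here was by tag and library name, giving a control-tagged and a TK-/- tagged group. If the titles are right, every sign below turns around. Library names mention cardiomyocytes and the source is given as LV tissue, and RNA was depleted of ribosomal RNA according to the labels but poly-A selected according to the paper. Markers of cells other than cardiomyocytes were present in every library and those of the atrium were low. Sums of 7 endothelial markers lay between 1296 and 1773 normalized CPM (read counts relative to the TMM-adjusted size of the library), and the sums of 3 atrial markers stood between 3.68 and 5.90. *Flt1* was the only gene that passed the quasi-likelihood test of edgeR over all genes (1 of 13542, 0.00738%) at a false discovery rate (FDR) below 0.1 with a change of 1.5-fold or more in either direction. Its normalized CPM was 67.4, 68.4, 56.9 and 84.3 in the control-tagged and 143.5, 149, 169.6 and 168 in the TK-/- tagged libraries (log2 fold change 1.19, SE 0.12, FDR 0.00808). The whole gene was counted, so that *Flt1* does not show the deletion itself.

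The proteins of the 7 lower genes work in different places of a cell. *Neurl1b* encodes a ubiquitin ligase that acts on Notch ligands, whose uptake by the sending cell is needed to activate Notch in the neighbouring cell, a signal used between cells of the vessel wall. *Colec11* encodes a secreted lectin of innate immunity, *Ift122* a part of the transport machinery of the primary cilium, and *Tmem255b*, *Ttyh2* and *Trp53i11* membrane proteins. *Gm10435* is annotated as an antisense RNA gene and codes for no known protein.

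The DNA before the start site is shown for *Neurl1b*, *Fam129b* and *Ttyh2*, so that the sequence composition given further on can be read directly. They are the lower genes with the widest gaps between groups among those whose window lay outside their own annotated gene. Overlap of the windows with other genes was not checked. Each line holds bases 250 to 51 before the RefSeq start site in GRCm38.p6, 5′ to 3′ in the direction of the gene, at chr17:26414609-26414808, chr2:32875884-32876083 and chr11:114675218-114675417, all on the plus strand. Capitals mark GC boxes and CCAAT boxes, which are matches to letters and not shown binding sites.
Neurl1b: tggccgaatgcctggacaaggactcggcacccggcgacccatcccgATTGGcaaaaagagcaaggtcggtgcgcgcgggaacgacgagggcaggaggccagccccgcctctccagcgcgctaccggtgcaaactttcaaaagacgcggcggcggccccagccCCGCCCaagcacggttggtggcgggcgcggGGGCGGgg
Fam129b: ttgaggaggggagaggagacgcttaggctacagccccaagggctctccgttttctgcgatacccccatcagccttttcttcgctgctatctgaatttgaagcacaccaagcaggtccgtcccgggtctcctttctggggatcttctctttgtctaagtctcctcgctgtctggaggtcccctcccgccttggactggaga
Ttyh2: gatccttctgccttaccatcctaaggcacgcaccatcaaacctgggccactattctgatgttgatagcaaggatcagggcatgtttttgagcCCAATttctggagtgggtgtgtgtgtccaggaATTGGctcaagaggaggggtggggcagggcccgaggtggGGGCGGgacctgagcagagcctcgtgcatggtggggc

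*Neurl1b* (ENSMUSG00000034413, GRCm38 chromosome 17, 26414829 to 26446349, plus strand) varied little among the control-tagged libraries (coefficient of variation 5.20%). Its normalized CPM there was 20.9, 22.0, 21.2 and 23.4 in replicates 1 to 4, against 15.4, 11.1, 15.3 and 14.6 in the TK-/- tagged replicates. The lowest control-tagged value was 1.36 times the highest TK-/- tagged value, the widest gap of the 8 genes. Means were 21.9 ± 1.14 and 14.1 ± 2.03 (SD, n = 4; log2 fold change -0.63, SE 0.12). Replicate 2 alone stood clearly below the rest of the TK-/- tagged group.

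*Tmem255b* (ENSMUSG00000038457, chromosome 8, 13435189 to 13468473, plus strand) encodes a protein that crosses the membrane several times. It had 10.8, 13.2, 14.7 and 13.8 normalized CPM in the control-tagged libraries and 8.53, 5.68, 8.14 and 7.49 in the TK-/- tagged libraries. Those values rest on 64 to 219 reads per library, the lowest single count among the 8 genes. The mean went from 13.1 ± 1.69 to 7.46 ± 1.26 (SD, n = 4). The fitted log2 fold change was -0.81 (SE 0.16), or 56.9% of the control-tagged level. As for *Neurl1b*, TK-/- tagged replicate 2 was the lowest library and control-tagged replicate 1 the lowest of its own group.

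*Ttyh2* (ENSMUSG00000034714, chromosome 11, 114675431 to 114720977, plus strand) belongs to the tweety family, membrane proteins that have been described as anion channels. The control-tagged replicates gave 12.9, 14.2, 13.9 and 11.8 normalized CPM, and the TK-/- tagged replicates 6.42, 7.55, 7.43 and 10.2. Its order within the group differed from that of the other lower genes, since TK-/- tagged replicate 1 was its lowest and replicate 4 its highest library of that group. Group means were 13.2 ± 1.12 and 7.90 ± 1.62 (SD, n = 4; log2 fold change -0.74, SE 0.15).

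*Trp53i11* (ENSMUSG00000068735, chromosome 2, 93187548 to 93201759, plus strand), a p53-inducible gene, had the highest level of the 8. Normalized CPM was 147, 189.8, 172 and 159 in the control-tagged libraries and 129.8, 114, 117 and 113 in the TK-/- tagged libraries. Per kilobase of annotated exon its level was 45.3 CPM in the control-tagged and 32.0 CPM in the TK-/- tagged group, above 91.5% of all genes tested. The means of 167 ± 18.1 and 118 ± 7.91 (SD, n = 4) gave the smallest difference of the 8 genes on the log2 scale (-0.50, SE 0.10).

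*Fam129b* (ENSMUSG00000026796, chromosome 2, 32876114 to 32925254, plus strand), now also called *Niban2*, encodes a protein with a lipid-binding pleckstrin homology domain that is found in the cytosol and at cell junctions. Its normalized CPM was 74.9, 81.1, 79.0 and 79.1 in the control-tagged and 62.7, 45.9, 54.0 and 56.0 in the TK-/- tagged libraries. The coefficient of variation was 3.33% in the first group, the lowest of the 8 genes, and 12.7% in the second. On average it had 78.5 ± 2.62 and 54.7 ± 6.94 normalized CPM (SD, n = 4; log2 fold change -0.52, SE 0.10). *Fam129b* and *Trp53i11* were the members whose difference stayed below this 1.5-fold minimum, and the other 6 exceeded it.

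*Colec11* (ENSMUSG00000036655, chromosome 12, 28594173 to 28623377, minus strand) encodes collectin-11, which binds sugars on microbes and starts the lectin pathway of complement with MASP proteases. It was measured at 26.4, 36.9, 32.4 and 30.7 normalized CPM in the control-tagged group and at 24.5, 18.5, 20.6 and 20.1 in the TK-/- tagged group. The groups came close to touching, with the nearest values 1.08-fold apart. Means were 31.6 ± 4.32 and 20.9 ± 2.54 (SD, n = 4; log2 fold change -0.60, SE 0.12).

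*Ift122* (ENSMUSG00000030323, chromosome 6, 115853470 to 115926699, plus strand) encodes a subunit of the intraflagellar transport complex A (IFT-A), which carries cargo from the tip of the cilium back to its base. Control-tagged values were 51.9, 68.9, 76.8 and 36.9 normalized CPM, and TK-/- tagged values were 35.7, 27.8, 29.5 and 33.6. It had the largest log2 fold change of the 8 genes (-0.89, SE 0.19) and the narrowest gap, 1.03-fold between control-tagged replicate 4 and TK-/- tagged replicate 1. The control-tagged mean of 58.6 ± 17.8 (SD, n = 4) had a coefficient of variation of 30.4%, the widest in any group of these genes, and the TK-/- tagged mean was 31.6 ± 3.64. Its log2 fold change became -1.06 when control-tagged replicate 4 was left out, and -0.74 when control-tagged replicate 3 was left out.

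*Gm10435* (ENSMUSG00000072902, chromosome 11, 59002910 to 59007293, plus strand) was the only one of the 8 genes with higher values in the TK-/- tagged group. The control-tagged libraries had 29.0, 23.6, 25.8 and 20.5 normalized CPM and the TK-/- tagged libraries 42.3, 38.4, 45.8 and 32.4. Replicate 4 was the lowest library in both groups. Means were 24.7 ± 3.59 and 39.7 ± 5.74 (SD, n = 4; log2 fold change 0.68, SE 0.13).

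**Figure D1:**
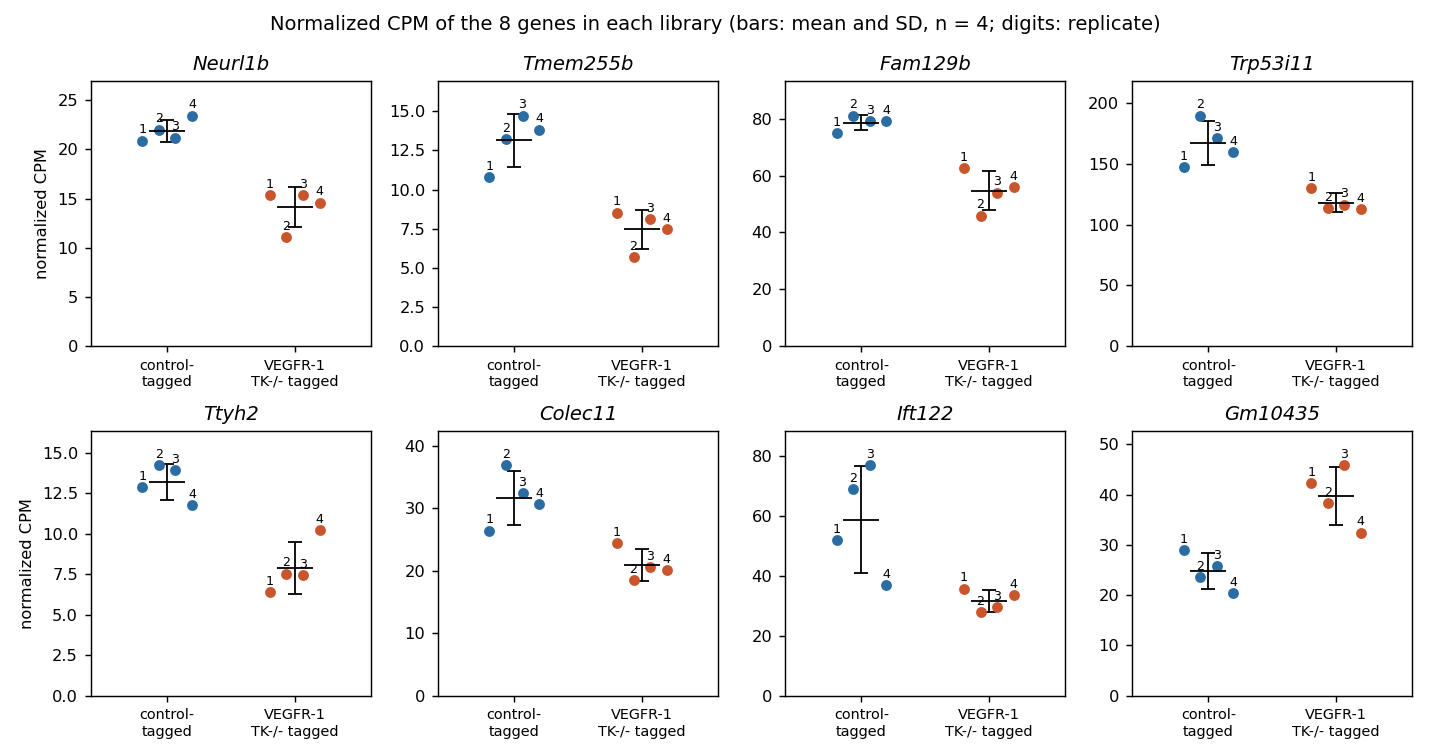
Normalized CPM (vertical axis, from 0) of each of the 8 genes in the 4 control-tagged and 4 TK-/- tagged libraries, with each point labelled by its replicate number and bars for mean and SD. The groups are far apart for *Neurl1b* and nearly touch for *Ift122*, where control-tagged replicate 4 lies at 36.9 and TK-/- tagged replicate 1 at 35.7.

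Separation of this kind was frequent in the whole table, in which 675 of the 13542 genes tested (4.98%) had groups without overlap, 342 of them lower (2.53%) and 333 higher (2.46%) in the TK-/- tagged group. Ranks by unadjusted p come from the same contrast on which the 8 genes were chosen, and are not a result about them. A low p and separation go together, and 19 of the first 20 genes were separated. The 8 genes held ranks 4 to 18 by unadjusted p in the test over all genes, and all 15 genes of these ranks were separated. The other 7 were *Col26a1*, *Cpsf4*, *Cntn2*, *Arpc1b*, *Nid2*, *Cmss1* and *Dok4*. The first gene in this order with overlapping groups was *Capn11* at rank 20, which had 0.290 to 4.51 normalized CPM in the control-tagged and 0 to 0.533 in the TK-/- tagged libraries and was named after its values were seen. Ranked by the size of the fold change alone, the 8 genes lay between positions 125 and 769. Spread within groups was not unusually small for them, with an SD of 0.128 to 0.354 on the log2 scale, against a median of 0.209 over all genes.

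**Figure D2:**
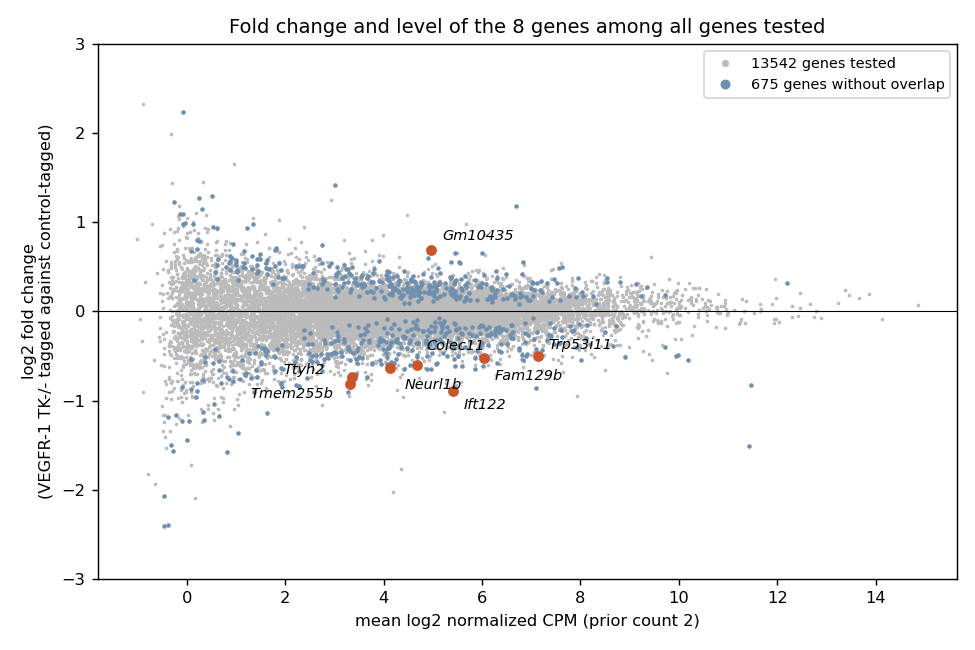
Log2 fold change of the TK-/- tagged against the control-tagged group (vertical axis) by mean log2 normalized CPM (horizontal axis, prior count 2) for the 13542 genes tested, with the 675 genes without overlap in blue and the 8 genes in orange. The 8 genes lie between -0.89 and 0.68, and 2 genes outside the plotted range are not drawn.

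Per kilobase of exon, the control-tagged levels fell in the order *Trp53i11* (45.3 CPM), *Colec11* (19.5 CPM), *Fam129b* (16.8 CPM), *Gm10435* (8.45 CPM), *Tmem255b* (8.31 CPM), *Ift122* (5.68 CPM), *Ttyh2* (3.53 CPM) and *Neurl1b* (3.45 CPM). Each gene overlapped with the next in this order over the 4 libraries, except *Trp53i11* with *Colec11* and *Fam129b* with *Gm10435*. In the TK-/- tagged group *Gm10435* stood at 13.6 CPM per kilobase beside *Colec11* at 12.9 and *Fam129b* at 11.7, and these 3 overlapped over libraries. The 7 lower genes shared an order of libraries in part. Control-tagged replicate 1 was the lowest of its group for 5 of them, and within the TK-/- tagged group replicate 1 was the highest for 6 and replicate 2 the lowest for 5.

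Most endothelial (median log2 fold change -0.27) and pericyte markers (-0.50) had lower averages in the same group as the 7 lower genes. So did all 6 fibroblast (median log2 fold change -0.19) and all 5 red blood cell markers (-0.37). Lower averages were also found for 6 of 7 leukocyte (-0.16) and 5 of 6 mesothelial markers (-0.08). Smooth muscle markers did not follow, with 2 of 5 lower and a median log2 fold change of 0.00. Of the cardiomyocyte and tested glial markers, 1 of 5 (0.16) and 1 of 4 (0.14) were lower. In bulk tissue, fewer cells of a type and less RNA per cell cannot be told apart. The sum of 5 pericyte markers was 1009, 1457, 1190.0 and 1226 normalized CPM in the control-tagged and 875.5, 749.3, 1011 and 1026 in the TK-/- tagged libraries. All 5 markers were lower on average and the highest and lowest sums of the groups overlapped, through control-tagged replicate 1. *Rgs5* made up the largest part of the sum, averaging 811 ± 182 and 581 ± 91.4 normalized CPM (SD, n = 4). Its log2 fold change was -0.48 (SE 0.17), and that of *Abcc9* was -0.10 (SE 0.12). The groups did not overlap for 2 of the 5, *Cspg4* and *Kcnj8*, where 2.53% of all genes were separated and lower. *Cspg4*, encoding the NG2 proteoglycan, averaged 46.8 ± 1.48 and 33.1 ± 6.28 normalized CPM (SD, n = 4; log2 fold change -0.50, SE 0.12, FDR 0.442 in edgeR's quasi-likelihood test), and *Kcnj8*, a subunit of ATP-sensitive potassium channels, 73.0 ± 17.3 and 46.6 ± 6.62 (-0.65, SE 0.16, FDR 0.442). The sum of 7 endothelial markers was 1434, 1773, 1766 and 1685 in the control-tagged and 1436, 1296, 1366 and 1415 in the TK-/- tagged libraries, with 6 of the 7 lower. No endothelial or pericyte marker reached an FDR below 0.1. An unadjusted p under 0.05 was found for 4 of the 7 endothelial and 4 of the 5 pericyte markers, against 8.96% of all genes. No endothelial or pericyte marker was at 0. Their part in the differences of the 7 genes was not tested.

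Both marker sums were then used as a denominator, a comparison added after the values had been seen. The 8 genes had been chosen for separation in these same libraries, so the shares over all genes are no test of them. Per endothelial marker sum, the log2 difference was -0.38 (SE 0.11) for *Neurl1b*, -0.56 (SE 0.11) for *Tmem255b*, -0.26 (SE 0.08) for *Fam129b*, -0.23 (SE 0.06) for *Trp53i11* and -0.33 (SE 0.08) for *Colec11*, and the groups did not overlap for these 5 genes. For *Ttyh2* (-0.49, SE 0.16) and *Ift122* (-0.57, SE 0.23) they overlapped. This scaling moved the median of all genes up by 0.27. On it 6 of the 8 genes and 15.6% of all genes were separated, and 0.258% of all genes were separated and lower. Per pericyte marker sum, which moved the median of all genes up by 0.42, each of the 7 genes overlapped between groups, with log2 differences from -0.43 (SE 0.25) for *Ift122* to -0.08 (SE 0.13) for *Trp53i11*, and 1 of the 8 genes was separated, against 17% of all genes, with 0.0665% of all genes separated and lower. *Gm10435* remained higher and separated on both scales (0.95, SE 0.20, and 1.1, SE 0.25), on which 15.3% and 16.9% of all genes were separated and higher.

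**Figure D3:**
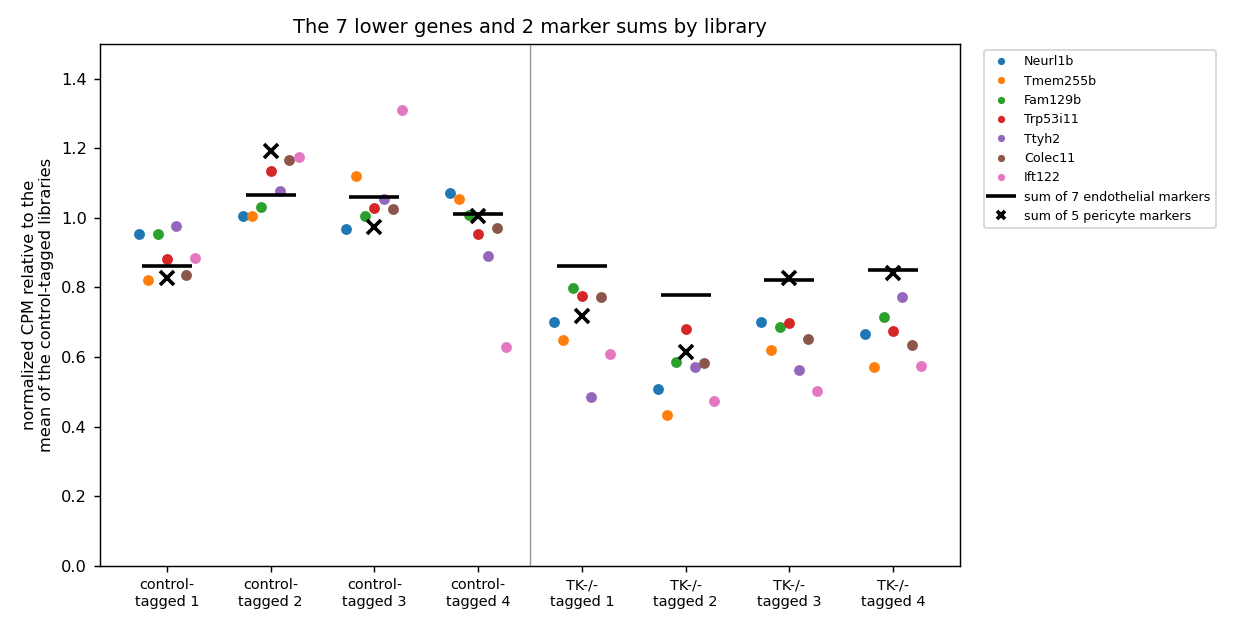
Normalized CPM of the 7 lower genes and the sums of 7 endothelial and 5 pericyte markers in each library, each divided by its mean over the 4 control-tagged libraries (vertical axis, from 0). In control-tagged replicate 1 both marker sums lie below 1 with the lower genes, and in TK-/- tagged replicate 2 most of the 7 genes and both marker sums are at their lowest.

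Genes of the same families and pathways were examined next. The rule had not used them, but their lists were chosen with earlier results of these data known. Of 100 such genes 93 passed the filter, 54 with lower and 39 with higher averages in the TK-/- tagged group, and their median log2 fold change was -0.04. None had an FDR under 0.1 in edgeR's quasi-likelihood test, and none did so in the likelihood ratio test or DESeq2. At an unadjusted p under 0.05 there were 13 of 93 genes, 11 lower and 2 higher, where all genes gave 8.96%, of which 5.64% were lower and 3.32% higher.

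The Notch list covers the pathway of *Neurl1b*. Of its 20 genes 17 had lower averages (median log2 fold change -0.22 against 0.00 for all genes), 7 of them at an unadjusted p under 0.05 (5.64% of all genes in that direction), namely *Notch1*, *Heyl*, *Notch3*, *Dll4*, *Adam17*, *Jag2* and *Hey1*. *Notch1*, a receptor, averaged 94.7 ± 10.6 and 73.3 ± 5.90 normalized CPM (SD, n = 4; -0.37, SE 0.10, FDR 0.442), and *Heyl*, a transcriptional target of Notch, 48.2 ± 5.73 and 37.4 ± 1.62 (-0.37, SE 0.10, FDR 0.442). The groups did not overlap for 3 of the 20, *Notch1*, *Heyl* and *Adam17*, where 2.53% of all genes were separated and lower. *Notch3* also served as a pericyte marker above. Medians below that of all genes were also found for the endothelial (-0.27) and pericyte markers (-0.50), but not for the smooth muscle markers (0.00). The part of these cell types in the values of the Notch list was not tested. Among the other ubiquitin ligases of Notch ligands in the list, *Mib1* (-0.04, SE 0.10) and *Mib2* (-0.03, SE 0.13) lay close to 0. *Neurl1a*, a paralog of *Neurl1b*, had a lower average (-0.25, SE 0.21, FDR 0.753).

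Of 5 further IFT-A subunits, 2 had lower and 3 higher averages than the control-tagged group, with a median of 0.00 and none at an unadjusted p under 0.05. *Wdr19* had a log2 fold change of -0.35 (SE 0.36, FDR 0.801) and *Ttc21b* of 0.20 (SE 0.18, FDR 0.767). Among 23 genes of the IFT-B complex, which carries cargo towards the tip, and of cilium motors and adaptors, 17 had higher averages (median 0.09). *Ift81*, an IFT-B subunit, averaged 27.2 ± 3.77 and 36.7 ± 4.11 normalized CPM (SD, n = 4; 0.43, SE 0.12, FDR 0.448). *Tulp3*, an adaptor that binds IFT-A, averaged 19.3 ± 2.54 and 14.4 ± 1.78 (-0.42, SE 0.13, FDR 0.464), and was the only one of the 23 without overlap of the groups, against 4.98% of all genes.

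The lectin complement list of *Colec11* had 7 of 12 genes above the filter, 6 with lower averages (median -0.25) and none at an unadjusted p under 0.05. *Masp1*, a gene of the MASP proteases, averaged 14.02 ± 1.96 and 10.9 ± 2.42 normalized CPM (SD, n = 4; -0.36, SE 0.17, FDR 0.559), and *Fcna*, a ficolin, 2.87 ± 1.01 and 1.84 ± 0.448 (-0.64, SE 0.30, FDR 0.559). *Masp2* was below the filter. *Mbl1* and *Mbl2*, the mannose-binding lectins of the liver, had no reads in any library. Of 22 genes of p53 and its targets, listed for *Trp53i11*, 11 had lower and 11 higher averages (median -0.01). Their lowest unadjusted p belonged to *Pmaip1*, an inducer of apoptosis (0.958 ± 0.262 and 0.552 ± 0.129 normalized CPM, SD, n = 4; -0.78, SE 0.35, FDR 0.553), followed by *Zmat3* (-0.24, SE 0.13, FDR 0.616), and *Trp53* itself lay at -0.10 (SE 0.10, FDR 0.800).

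The anion and volume channels, listed for *Ttyh2*, had 9 of 11 genes with lower averages (median -0.24). *Ano6*, a scramblase and channel of the plasma membrane, averaged 61.4 ± 6.79 and 45.1 ± 6.44 normalized CPM (SD, n = 4; -0.45, SE 0.12, FDR 0.442), and the paralog *Ttyh3* lay at -0.24 (SE 0.10, FDR 0.522). The third member of this family, *Ttyh1*, lay at -0.01 (SE 0.28, FDR 0.995). Of the 9 paralogs of the 8 genes that passed the filter, *Ttyh3* alone had an unadjusted p under 0.05. *Neurl1a* (-0.25, SE 0.21), *Neurl3* (-0.23, SE 0.18), *Neurl4* (-0.04, SE 0.12), *Fam129a* (-0.30, SE 0.17) and *Colec12* (-0.25, SE 0.14) had lower averages, and *Neurl2* (0.15, SE 0.12) and *Fam129c* (0.04, SE 0.20) higher. *Tmem255a* and *Colec10* were below the filter.

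**Figure D4:**
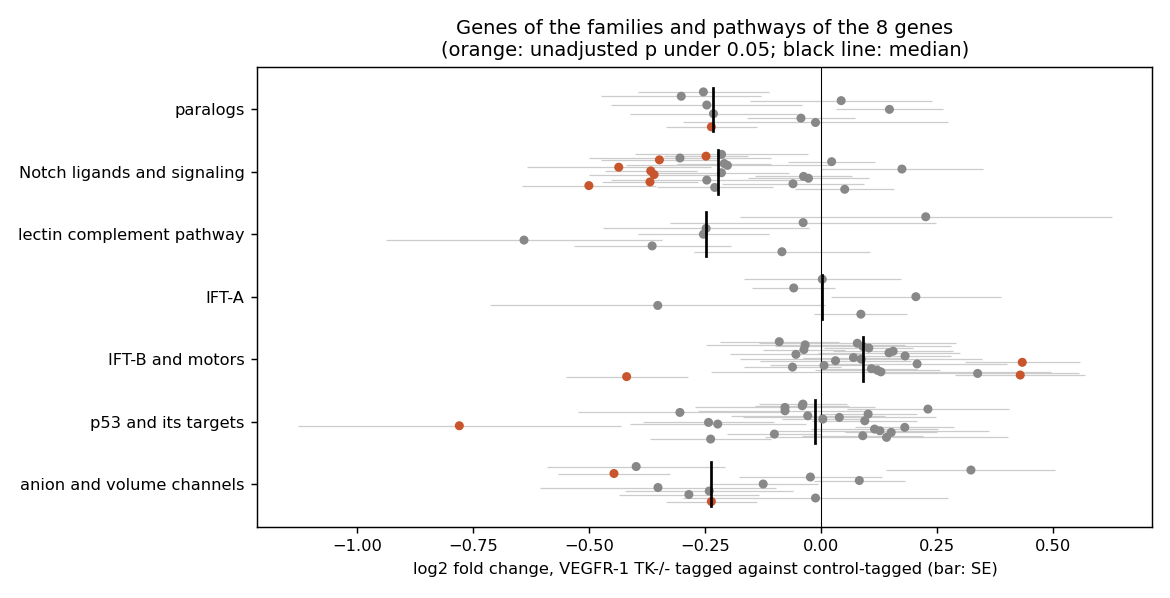
Log2 fold change of the TK-/- tagged against the control-tagged group (horizontal axis, bars show SE) for the tested genes of 7 lists related to the 8 genes, with orange points for an unadjusted p under 0.05 and a black line for each list's median. Medians lie between -0.25 for the lectin complement pathway and 0.09 for IFT-B and motors, and 2 of the IFT-B points are orange on the higher side.

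The nearest tested gene on either side of each of the 8 genes, with any gene that overlaps their exons, made up 19 neighbours. Of these, 13 had lower and 6 higher averages (median log2 fold change -0.12), none reached an FDR below 0.1, and 4 were at an unadjusted p under 0.05, all lower, against 5.64% of all genes in that direction. *Gprc5c*, 130.2 kb from *Ttyh2*, averaged 12.1 ± 1.86 and 8.79 ± 0.846 normalized CPM (SD, n = 4; -0.46, SE 0.14, FDR 0.453) and was the only neighbour without overlap (1 of 19), where 4.98% of all genes had none. *Plxnd1*, a semaphorin receptor of endothelial cells 28.1 kb from *Ift122*, lay at -0.37 (SE 0.14, FDR 0.506), and *Rasa3* beside *Tmem255b* at -0.41 (SE 0.15, FDR 0.478). *Mbd4*, which starts 99 bases from *Ift122* on the opposite strand, lay at -0.12 (SE 0.33), and *Tspan18*, which adjoins *Trp53i11* on the opposite strand, at -0.28 (SE 0.16). None of the 8 genes lies on the chromosome of *Flt1*.

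Exons on opposite strands were shared by *Tmem255b* with *Gas6* (34 bases) and by *Fam129b* with *Lrsam1* (39 bases). Whether strand was used in the counting is not stated, so reads from such bases cannot be told apart, and for the antisense gene *Gm10435* reads of the opposite strand cannot be told from its own. *Gas6* (-0.21, SE 0.12, FDR 0.634) and *Lrsam1* (-0.05, SE 0.10, FDR 0.919) did not pass the test.

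Sequence shared with transcripts of other genes was small for the 7 lower genes. *Tmem255b*, *Fam129b*, *Colec11* and *Ift122* shared none of their stretches of 50 bases with another gene in GENCODE M21, *Ttyh2* 0.0542%, *Neurl1b* 0.141% and *Trp53i11* 0.361%. For *Gm10435* the share was 6.33%.

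Among the 8 genes, 6 matched a RefSeq start site, and for 5 of these, *Neurl1b*, *Fam129b*, *Trp53i11*, *Ttyh2* and *Colec11*, the 200 bases were clear of the annotated gene and were searched on both strands. Their GC content was 53% to 71%, with 2 to 25 CpG, against a median of 51.5% and 4 over 32851 windows. The GC box GGGCGG was found in 3 of the 5 (*Neurl1b*, *Trp53i11* and *Ttyh2*) and in 24.6% of all windows, and the CCAAT box, named by its letters, in 2 of 5 (*Neurl1b* and *Ttyh2*) and 28.4%. The core letters of the Notch cofactor RBPJ, TGGGAA, were found in *Colec11* alone and in 17.9% of all windows. The TATA box (letters TATAAA, in 9.14% of all windows), the E-box (letters CACGTG, in 4.34%) and the core letters of ETS factors (CCGGAA, in 8.03%) were in none of the 5. The letters of the RBPJ and ETS cores overlap in GGAA. A match is a description of the sequence.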

How the data were processed

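RNA was sequenced from the LV of mice after angII infusion in 8 libraries, with 4 libraries per genotype as tagged. The submitters' processing notes name bcl2fastq 2.20.0.422, Trim Galore 0.4.4, STAR 2.5.4b, featureCounts and GRCm38. The authors deposited whole-number counts per gene, not normalized. The handling of strand and of reads with several alignments is not given in the sources used here, and may add reads of overlapping or similar genes. Counts per library lay between 12349639 and 16239670 in the control-tagged and between 11449137 and 13505888 in the TK-/- tagged group.

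The 13542 genes that reached a CPM of 1 in 2 or more libraries were tested. TMM factors (0.917 to 1.12) and the quasi-likelihood test of edgeR 4.0.16 in R 4.3.3 were used (all 8 libraries, no covariates). A prior count of 2 was used for log2 normalized CPM, and edgeR's default for fold changes. FDR was by Benjamini-Hochberg over all genes tested, and the procedure was tested on simulated data. Labels do not state that libraries of a group came from separate mice. The p-values set the group difference against the spread between these libraries, which edgeR moderates over all genes. The 8 genes and the related lists were chosen with earlier results of these data known. Named genes were the 8 genes, in each list the genes with an FDR under 0.1 and the 2 with the lowest unadjusted p, paralogs above the filter, neighbours, the most alike gene of each and *Flt1*. Other genes were named after their values were seen, and the values of some genes covered by this rule are not reported here.

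Coordinates are from GENCODE M21, and start sites from RefSeq GRCm38.p6. Alternatives tried were DESeq2 1.42.0, the likelihood ratio test, robust dispersion, RLE factors, total counts, no filter, filterByExpr, other thresholds, the replicate number as a block and each library left out, and scaling by marker sums was added after seeing the data. Marker lists covered cardiomyocytes, endothelium, fibroblasts, pericytes, smooth muscle, leukocytes, mesothelium, adipocytes, glia, atrium, skeletal muscle, red blood cells and hepatocytes.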

Additional observations from a re-analysis of the deposited data

How the results depend on the processing

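The log2 fold changes of the 8 genes moved by less than the SD within groups in all 16 other settings, their sign being fixed by how the genes were chosen, and no related gene or neighbour passed the test in any of them. Over all genes, 1 gene passed the test, against 53 in the likelihood ratio test, 32 in DESeq2, 23 without a filter on low counts and 1 to 3 with each library left out. It was 2 without control-tagged replicate 1, 3 without control-tagged replicate 2 and 3 without control-tagged replicate 4. The cause was not tested. The number of genes without overlap between groups, 675 with all libraries, was 855 to 1388 with each library left out, which compares fewer libraries. It passed 1.5 times that number without control-tagged replicate 1 (1370) or 4 (1270) and without TK-/- tagged replicate 1 (1214) or 4 (1388). With total counts it was 535.

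Replicate numbers occur in both groups, but nothing ties them to a litter or day. Deviations from the group means correlated between same-numbered libraries at -0.029, 0.029, 0.343 and -0.0555, and only replicate 3 correlated best with its own number. With the replicate number as a block, 1 gene passed the test, 0 related genes and 0 neighbours. Scaling by marker sums moved the 8 genes as given above and turned no direction. At this depth *Tmem255b*, with 64 to 219 reads per library, has the lowest single count of the 8 genes.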

Other observations

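For the genes described here, the gene with the most similar pattern was sought among all genes tested by Pearson's r of log2 normalized CPM centred on the group means. This leaves the group difference out. The most alike were *Osbpl3* for *Neurl1b* (r = 0.98, rho = 0.976), *Usp49* for *Tmem255b* (r = 0.989, rho = 1), *Gm2a* for *Fam129b* (r = 0.982, rho = 0.786) and *Sirt7* for *Trp53i11* (r = 0.983, rho = 0.929). They were *Agap1* for *Ttyh2* (r = 0.982, rho = 0.976) and *Mmrn2*, a gene of endothelial cells, for *Colec11* (r = 0.977, rho = 0.976). The value for *Gm10435* was r = 0.948, with *RP23-422P4.2*. Each is the highest of many values over 8 libraries that share depth and tissue composition, and is a description. None of these genes passed the test between groups, and *Mmrn2* had a log2 fold change of -0.22 (SE 0.09, FDR 0.534 in edgeR's quasi-likelihood test).

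Marker sums of other cell types also overlapped between the groups. In normalized CPM, the control-tagged and TK-/- tagged ranges were 37750.3 to 57156 and 46212 to 61640.2 for cardiomyocytes, 1055 to 1548 and 567 to 1316 for fibroblasts, 540.0 to 1019.6 and 468 to 710.5 for smooth muscle, and 165 to 206 and 115 to 179 for leukocytes. They were 309 to 766 and 359 to 601 for red blood cells, 18.5 to 67.1 and 18.8 to 65.7 for mesothelium, and 10.1 to 13.1 and 8.97 to 16.3 for glia. Sums of adipocyte, skeletal muscle and hepatocyte markers stayed under those of glia, with *Plin1*, *Lep* and *Myh4* at 0 in every library. All 6 fibroblast markers had lower averages in the TK-/- tagged group, and none of them had an unadjusted p under 0.05. No marker of any list had an FDR under 0.1.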
